A study of Mus musculus with 6 samples.

Results

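The 10 genes described here, Slc1a4, Slc1a5, Slc3a2, Slc7a1, Slc7a5, Slc7a6, Slc38a1, Slc38a2, Slc6a9 and Slc43a1, encode proteins that carry amino acids across the plasma membrane. They were taken by gene symbol from 41255 genes listed in a table of normalized read counts, and all 10 were among the 11550 genes that passed the expression filter. The table came from total mRNA of Ba/F3 cells, lymphoid cells of the mouse that need interleukin-3 to grow. Monoclonal cultures, each grown from 1 cell, carried a retroviral cDNA of human RPL10, a protein of the large ribosomal subunit. The cDNA was WT in clones 28, 29 and 36 and R98S, the mutant form found in T-cell acute lymphoblastic leukemia, in clones 11, 13 and 35. All 6 cultures also expressed a short hairpin RNA against mouse Rpl10, cultures with a strong knock-down were chosen, and the cells received cycloheximide, which halts translation, for 5 min before RNA isolation. Each genotype was thus represented by 3 clones (n = 3) with 1 library each, and the comparison asked whether transporter mRNA levels differed between R98S and WT cells.

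Amino acid carriers fall into families with different substrates and energy sources. Slc3a2 (also called CD98 or 4F2hc) is a glycoprotein that is not a channel itself but brings light chains such as Slc7a5 (LAT1) and Slc7a6 to the cell surface, where they exchange large neutral or cationic amino acids. Slc1a4 and Slc1a5 exchange small neutral amino acids including serine, and Slc1a5 also exchanges glutamine. Slc38a1 and Slc38a2 take up neutral amino acids together with sodium, and Slc7a1 imports arginine and lysine. Slc6a9 takes up glycine, and Slc43a1 (LAT3) lets large neutral amino acids pass without an ion gradient. Several of these genes are known to be induced when amino acids run short, through the transcription factor ATF4, and in growing lymphoid cells.

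Promoter sequences are shown for the 2 transporters with the lowest log2 fold change, for the member that varied least and for the cystine transporter Slc7a11, whose values are given further on. Of the 10 members, 7 had an entry in the RefSeq promoter table for GRCm38.p6. Slc1a5, Slc7a5 and Slc38a1 had no entry. Each sequence runs 5′ to 3′ on the gene's strand from 200 bases before to 10 bases after the RefSeq start, and capitals mark matches on either strand to the motif GGGCGGG, known as the GC box, or to TGATGNAAN, the core of the composite site that ATF4 binds together with C/EBP proteins.
Slc1a4 (chr11:20332704-20332913, minus strand): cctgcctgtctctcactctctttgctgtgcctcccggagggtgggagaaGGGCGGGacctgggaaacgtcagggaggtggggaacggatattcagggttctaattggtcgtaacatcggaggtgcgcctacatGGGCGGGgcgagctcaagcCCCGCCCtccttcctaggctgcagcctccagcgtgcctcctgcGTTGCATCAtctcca
Slc7a1 (chr5:148399895-148400104, minus strand): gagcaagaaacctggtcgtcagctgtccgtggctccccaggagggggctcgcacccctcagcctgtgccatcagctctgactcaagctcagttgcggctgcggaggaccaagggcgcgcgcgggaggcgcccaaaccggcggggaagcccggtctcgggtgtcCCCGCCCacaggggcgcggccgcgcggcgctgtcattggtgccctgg
Slc7a6 (chr8:106168721-106168930, plus strand): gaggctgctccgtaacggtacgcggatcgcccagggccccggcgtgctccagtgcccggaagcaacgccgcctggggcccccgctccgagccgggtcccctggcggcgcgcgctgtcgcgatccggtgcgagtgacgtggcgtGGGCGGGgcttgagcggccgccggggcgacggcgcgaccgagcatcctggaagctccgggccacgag
Slc7a11 (chr3:50443604-50443813, minus strand): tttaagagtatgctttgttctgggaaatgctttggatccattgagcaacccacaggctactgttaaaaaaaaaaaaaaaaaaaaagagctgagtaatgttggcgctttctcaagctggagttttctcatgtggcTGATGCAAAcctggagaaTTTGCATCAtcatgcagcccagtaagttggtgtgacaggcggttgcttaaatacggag
Slc7a1 and Slc7a6 each also had a listed start that is not printed, at 148392815 and 106168854. From 200 bases before to 10 bases after that start, neither gene had a match to the marked motifs. The window searched ran from 250 bases before to 50 bases after each start, and all listed starts of a gene were used. The motifs were chosen after the values were seen. A GC box was present in 7 of 7 members with a window, compared with 51.5% of the 8430 tested genes that had a window. TGATGNAAN was present in 1 of 7 members, Slc1a4, where the match on the opposite strand spanned the start (-5 to 4). It was present in 2.76% of the tested genes with a window. Slc7a11 had 2 matches, at -66 to -58 and at -48 to -40. The E-box CACGTG was present in 1 of 7 members, Slc43a1, and in 11.7% of the tested genes with a window. These are matches of letters only, and binding was not measured.

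Across the libraries the depth lay between 21786776 and 24204991 reads assigned to genes. Normalized read counts are reads corrected for the depth of the library. Of 13 markers listed for Ba/F3 cells and early B cells, 7 were tested. Csf2rb and Csf2rb2, beta chains of the interleukin-3 receptor, were at 46530 or more and 39754 or more in every clone. The B-lineage genes Cd79a and Cd79b had means of 1162 and 415, and Spn, also on this list, had 3066. By contrast, Vpreb1, Igll1, Pax5 and Cd93 had at most about 3 reads in every clone. Of the 7, R98S cells had 3 higher (Csf2rb, Csf2rb2 and Cd79b, with log2 fold changes of 0.53, 0.62 and 1.22) and 1 lower (Ptprc, -1.33). Over all tested genes 10.7% were called higher and 13.1% lower. Of 33 markers listed for T cells, mast or myeloid cells, and erythroid cells or megakaryocytes, 14 passed the expression filter. Called higher in R98S cells were 3 of 3 tested T-cell markers, against 10.7% of all tested genes. Called lower were 2 of 6 mast and myeloid and 1 of 5 erythroid and megakaryocyte markers, against 13.1%. The 3 T-cell markers, Cd3d, Cd247 and Lck, were low, with WT means of 13.3, 12.4 and 42.6. Below the filter, Cd3g and Trac had means of 16.4 and 13.6 in WT and 1.27 and 6.03 in R98S clones. The WT mean of Cd3g rested on WT clone 36, at 43.0, with 3.07 and 3.22 in WT clones 28 and 29. Cd8a, also below the filter, had means of 1.34 in WT and 3.41 in R98S clones. Summed levels lay between 86.0 and 134 in WT and 199 and 253 in R98S clones for the T-cell list, between 827 and 1037 and between 453 and 708 for the mast and myeloid list, and between 5254 and 12762 and between 6157 and 9921 for the erythroid and megakaryocyte list. Cd8b1, Fcer1a and Hbb-bt were at 0 in all clones. The part of these differences in the transporter results was not tested, and in bulk RNA fewer cells that express a gene and less RNA per cell cannot be told apart.

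Among the members, compared per kilobase of annotated exon, the mRNAs of the CD98 heavy chain and its light chain LAT1 were the most abundant. In WT clones the mean normalized read count per kilobase was 3504 for Slc7a5, 2880 for Slc3a2, 904 for Slc38a2, 701 for Slc1a5, 611 for Slc7a1, 601 for Slc7a6, 339 for Slc38a1, 245 for Slc1a4, 129 for Slc43a1 and 75.7 for Slc6a9. The order of neighbours held in 6 of 6 clones for 6 of the 9 adjacent pairs. Slc7a1 exceeded Slc7a6 in only 2 of 6 clones, and Slc1a5 exceeded Slc7a1, and Slc1a4 exceeded Slc43a1, in 5 of 6. Clear steps without overlap between the 6 values on each side separated Slc3a2 from Slc38a2, Slc7a6 from Slc38a1 and Slc43a1 from Slc6a9. Exon length was the union over all annotated isoforms (17236 bases for Slc38a1), so the level per kilobase is understated where a long isoform is little used.

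None of the 10 transporter mRNAs passed the threshold between R98S and WT clones. A gene was called when the p-value of limma on log2(normalized read count + 1), adjusted by the Benjamini-Hochberg method over all 11550 tested genes, was under 0.1. Of all tested genes 23.9% were called, 13.1% as lower and 10.7% as higher in R98S cells. At an unadjusted p under 0.05 the count of members was also 0, compared with 31.7% of all tested genes. edgeR called 0 members after adjustment, with 1 (Slc7a1) at an unadjusted p under 0.05. DESeq2 called 1 member, again Slc7a1, which it placed lower in R98S cells (log2 fold change -0.47, adjusted p = 0.0793). The log2 fold change was below 0 for 8 of the 10 members, with a median of -0.16, and the median over all tested genes was -0.011. Only Slc7a6 had groups that did not overlap, which held for 37.3% of all tested genes.

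**Figure D1:**
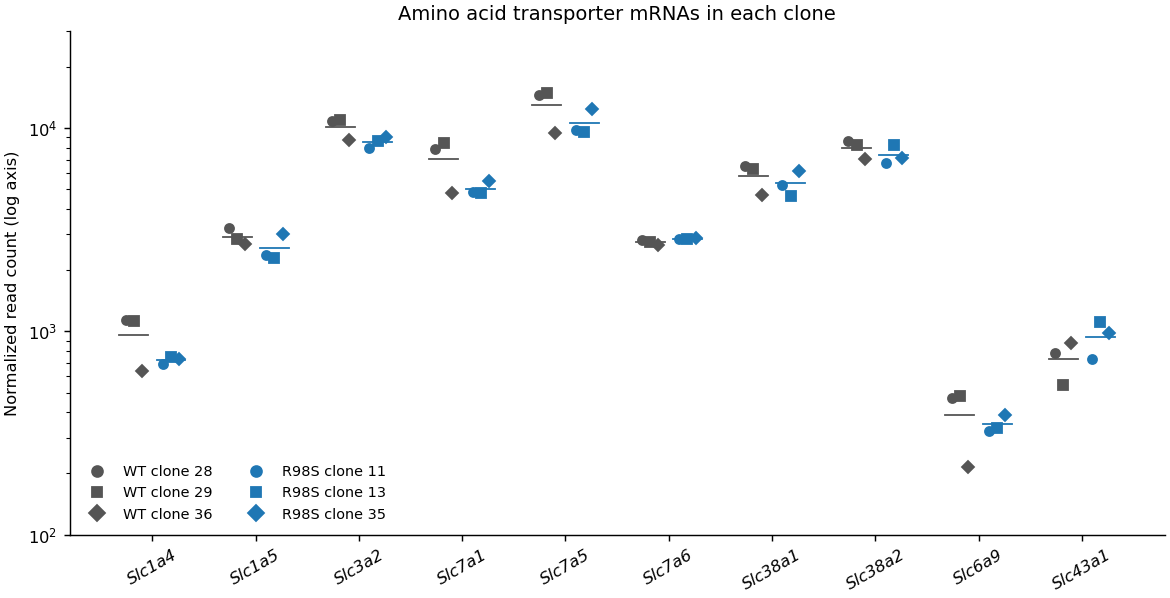
Normalized read count of each transporter mRNA (y axis, log scale) in the 3 WT clones (gray) and the 3 R98S clones (blue), with 1 point per clone and a line at each group mean. For Slc1a4, Slc7a1 and Slc7a5, WT clones 28 and 29 lie above all R98S clones while WT clone 36 lies beside or below them.

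The heavy chain Slc3a2 (chromosome 19, 8706882 to 8723369, minus strand; gene coordinates are GRCm38) had normalized read counts of 10841, 10941 and 8706 in WT clones 28, 29 and 36, against 7969, 8625 and 9026 for R98S clones 11, 13 and 35. WT clones 28 and 29 were highest, and WT clone 36 lay between R98S clones 13 and 35. WT clones averaged 10163 ± 1263 and R98S clones 8540 ± 533 (SD, n = 3), which gave a log2 fold change of -0.24 (SE 0.12, adjusted p = 0.208 in limma).

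Its light chain Slc7a5 (chromosome 8, 121881150 to 121907694, minus strand) had 14542, 14935 and 9500 normalized read counts in the WT clones and 9849, 9626 and 12439 in the R98S clones. Here WT clone 36 had the lowest level of the 6. The means were 12993 ± 3031 and 10638 ± 1563, and the log2 fold change was -0.27 (limma adjusted p = 0.372, SE 0.19). The interval of this difference (95%) ran from -0.71 to 0.17, on the log2 scale.

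The other light chain among the 10 members, Slc7a6 (chromosome 8, 106168857 to 106198706, plus strand), was nearly level. It had 2823, 2756 and 2665 normalized read counts in the WT clones and 2858, 2834 and 2871 in the R98S clones. Every R98S clone was above every WT clone, but the means, 2748 ± 79 and 2854 ± 19, differed by a log2 fold change of 0.055 (SE 0.090, adjusted p = 0.715 in limma). The coefficient of variation was 2.89% among WT and 0.65% among R98S clones, the smallest of the 10 members in both groups. No other member had so narrow an interval of the difference, which ran from -0.15 to 0.26.

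The ratio of Slc7a6 to its heavy chain was higher in every R98S clone than in any WT clone. The ratio of Slc7a6 to Slc3a2 was 0.260, 0.252 and 0.306 in the WT clones and 0.359, 0.329 and 0.318 in the R98S clones, without overlap (exact permutation p = 0.1, two-sided, below which groups of 3 cannot go, and adjusted p = 0.25 over 5 ratios). The ratio of Slc7a5 to Slc3a2 was 1.34, 1.37 and 1.09 in the WT clones and 1.24, 1.12 and 1.38 in the R98S clones, so the values of the groups overlapped (exact permutation p = 1). Slc7a5 and Slc3a2 thus kept a ratio between 1.09 and 1.38 in all clones, in normalized read counts that are not divided by length.

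**Figure D2:**
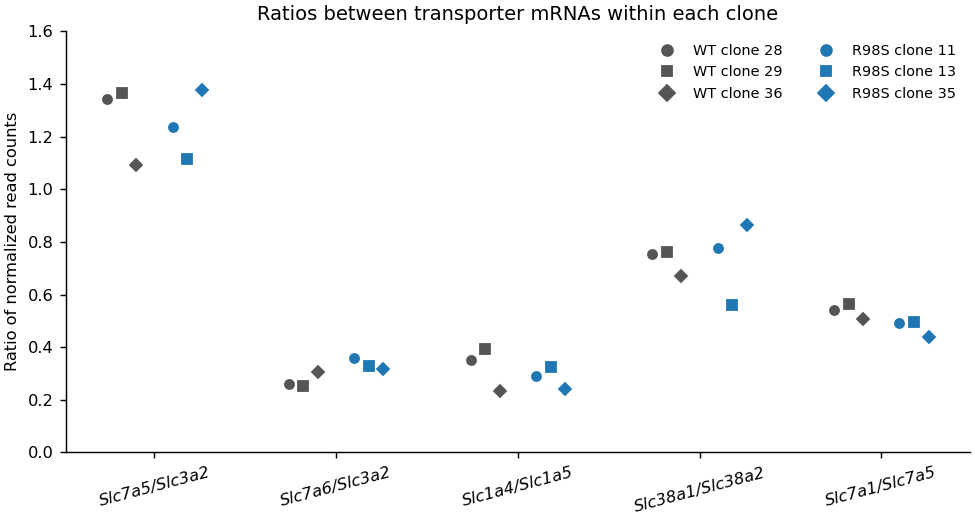
Ratio of the normalized read counts of 5 pairs of transporter mRNAs (y axis, linear scale from 0) in each clone, WT in gray and R98S in blue. The groups are apart for Slc7a6/Slc3a2 and Slc7a1/Slc7a5 and overlap for the other pairs.

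Slc1a4 (ASCT1; chromosome 11, 20302180 to 20332713, minus strand) was one of the members that differed most in mean. Its normalized read counts were 1134, 1120 and 634 in WT clones 28, 29 and 36, against 692, 750 and 729 for R98S clones 11, 13 and 35. The R98S clones were close to each other, with a coefficient of variation of 4.04%, while WT clone 36 was below all of them and the other WT clones were above. The log2 fold change was -0.36 (limma adjusted p = 0.298, SE 0.22), with means of 963 ± 284 in WT and 724 ± 29 in R98S cells.

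Slc1a5 (ASCT2; chromosome 7, 16781340 to 16798274, plus strand), the main glutamine exchanger of many proliferating cells, had 3232, 2844 and 2704 normalized read counts in the WT clones and 2384, 2303 and 3007 in the R98S clones. R98S clones 11 and 13 were lowest, and R98S clone 35 was above 2 of the WT clones. The log2 fold change was -0.20 (limma adjusted p = 0.351, SE 0.13). Relative to the median difference of the 30 tested genes closest to it on the chromosome it was -0.016. The ratio of Slc1a4 to Slc1a5 was 0.326 ± 0.082 in WT and 0.286 ± 0.042 in R98S clones (exact permutation p = 0.6).

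Slc7a1 (CAT1; chromosome 5, 148327410 to 148399904, minus strand), the cationic amino acid carrier, showed the lowest log2 fold change of the 10 members. It had 7884, 8422 and 4814 normalized read counts in the WT clones and 4853, 4774 and 5473 in the R98S clones. WT clones 28 and 29 stood well above the other 4 clones, which lay between 4774 and 5473. The means were 7040 ± 1947 and 5034 ± 383, a log2 fold change of -0.44 (SE 0.20, adjusted p = 0.175 in limma) with an interval from -0.91 to 0.02. The ratio of Slc7a1 to Slc7a5 was lower in each R98S clone (0.493, 0.496 and 0.440) than in any WT clone (0.542, 0.564 and 0.507), with an exact permutation p of 0.1 and an adjusted p of 0.25.

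The sodium-coupled carriers Slc38a1 (SNAT1; chromosome 15, 96571418 to 96642913, minus strand) and Slc38a2 (SNAT2; chromosome 15, 96687392 to 96699730, minus strand), which lie next to each other, had small differences in mean. Slc38a1 had 6518, 6290 and 4713 normalized read counts in the WT clones and 5240, 4612 and 6184 in the R98S clones, and the log2 fold change was -0.12 (limma adjusted p = 0.634, SE 0.16). Slc38a2, known as the carrier that adapts to amino acid supply, had 8646, 8266 and 7044 in the WT clones and 6731, 8223 and 7146 in the R98S clones, and the log2 fold change was -0.12 (limma adjusted p = 0.554, SE 0.12). In both genes the groups overlapped, and WT clones 28 and 29 had the highest values. Their ratio, Slc38a1 to Slc38a2, was 0.728 ± 0.051 in WT and 0.735 ± 0.157 in R98S clones (exact permutation p = 1).

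The glycine carrier Slc6a9 (GLYT1; chromosome 4, 117834506 to 117875198, plus strand) varied most among WT clones. Its normalized read counts were 471, 481 and 215 in WT clones 28, 29 and 36, against 322, 334 and 389 for R98S clones 11, 13 and 35. The R98S clones all lay inside the range of the WT clones. The log2 fold change was -0.074 (limma adjusted p = 0.891, SE 0.30). The 30 nearest tested genes were shifted upwards in R98S cells by a median of 0.38 on the log2 scale, and relative to them the log2 fold change of Slc6a9 was -0.45 (adjusted p = 0.341). Exons of Slc6a9 share 1429 bases with Ccdc24 on the opposite strand, and whether counting used the strand is not stated, so reads of the genes may be mixed.

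Slc43a1 (LAT3; chromosome 2, 84838850 to 84863594, plus strand) had the highest log2 fold change of the 10 members. It had 778, 546 and 880 normalized read counts in the WT clones and 728, 1115 and 982 in the R98S clones. R98S clones 13 and 35 were above all WT clones, and R98S clone 11 was below 2 of them. The means were 735 ± 171 and 941 ± 196, a log2 fold change of 0.36 (SE 0.22, adjusted p = 0.293 in limma).

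Most members shared one pattern over the clones. WT clones 28 and 29 each held the highest value of the 6 for 4 members, and WT clone 36 held the lowest for 4. The summed normalized read counts of the 10 members were 56869, 56602 and 41875 for WT clones 28, 29 and 36, against 41627, 43197 and 48245 for R98S clones 11, 13 and 35. The sum in WT clone 36 thus lay between those of R98S clones 11 and 13. The 10 genes took 0.248%, 0.242% and 0.187% of all assigned reads in the WT libraries and 0.183%, 0.189% and 0.217% in the R98S libraries.

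Within the WT group, clone 36 was below the mean of the other two clones for 9 of 10 members, by a median of -0.38 on the log2 scale. Over all 11550 tested genes 53.4% were lower in WT clone 36, with a median of -0.024, and 90% of genes lay between -0.59 and 0.82. The difference was -1.14 for Slc6a9, -0.83 for Slc1a4, -0.76 for Slc7a1 and -0.63 for Slc7a5, and the exception was Slc43a1 at 0.43. On the log2 scale the SD among WT clones exceeded that among R98S clones for 9 of 10 members, Slc1a5 being the exception, and for 39.4% of all tested genes. The median SD of the members was 0.31 in WT and 0.15 in R98S clones.

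**Figure D3:**
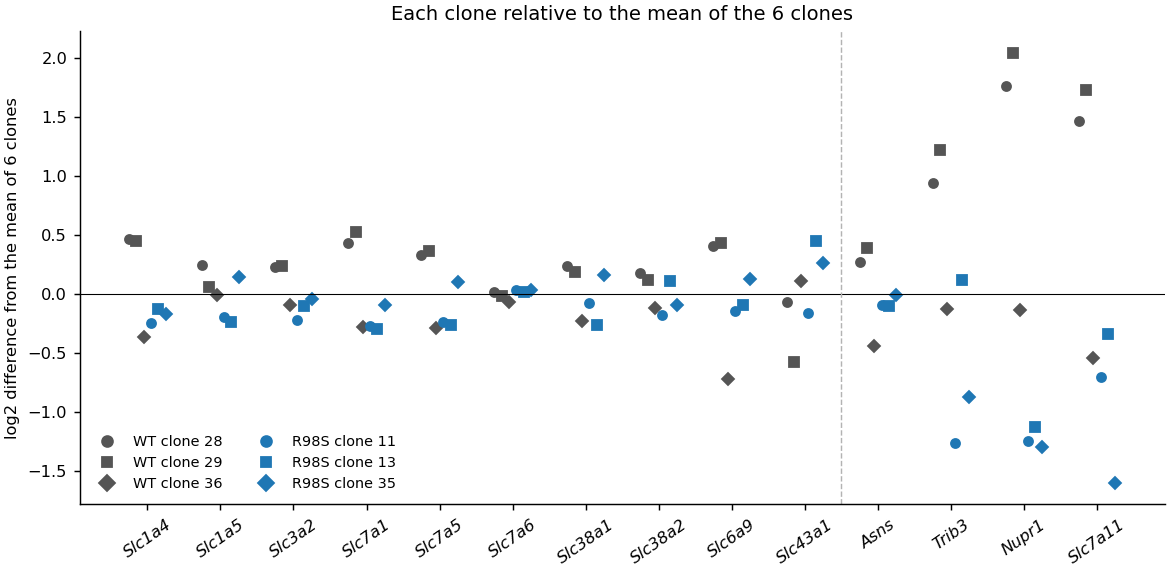
Difference of log2(normalized read count + 1) in each clone from the mean of the 6 clones (y axis) for the 10 transporters (left of the dashed line) and for Asns, Trib3, Nupr1 and Slc7a11 (right). WT clone 36 (gray diamonds) lies below WT clones 28 and 29 for every gene plotted except Slc43a1.

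Without WT clone 36, limma called 4 of the 10 members, all lower in R98S cells. In that fit 21.7% of all tested genes were called and 12.2% were called lower. The log2 fold changes were -0.70 for Slc7a1 (limma adjusted p = 0.0136), -0.64 for Slc1a4 (0.0218), -0.48 for Slc7a5 (0.0677) and -0.35 for Slc3a2 (0.0764). The median of the 10 members was -0.31. Leaving out any of the other 5 clones called 0 members. The fit without clone 36 rests on 2 WT clones. The study kept the library of clone 36 and reported that principal component analysis separated R98S from WT samples in this dataset. Another of its mRNA datasets could hold several libraries per clone. From that dataset it left out a single library of clone 36, which grouped with the R98S libraries in principal component analysis.

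**Figure D4:**
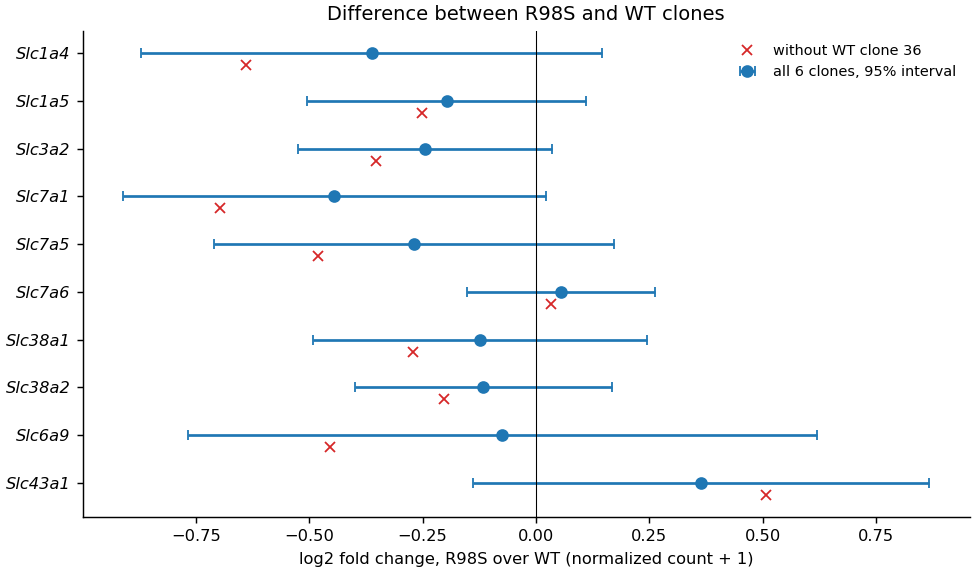
log2 fold change of R98S over WT clones (x axis) for each transporter mRNA, with all 6 clones (circles, bars are 95% intervals from limma) and without WT clone 36 (crosses). All 10 intervals include 0. Without WT clone 36, 8 of the 10 estimates lie further from 0 on the negative side.

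Among amino acid carriers outside the 10 members, 58 genes were listed in 5 groups and found in the table, with Slc66a1 under its older symbol Pqlc2. Of these, 33 were below the expression filter (16 of them with at most 3 reads in every clone), leaving 25 tested genes. R98S cells had 3 of the 25 higher and 5 lower, against 10.7% and 13.1% of all tested genes. The median log2 fold change was -0.11. Of the 33 genes listed as plasma membrane carriers for neutral, cationic or acidic amino acids outside the 10 members, 4 passed the filter. Slc38a6, with a mean of 15432 over all clones, was listed with the lysosomal and less studied carriers and is not counted among them.

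Slc36a2 (PAT2), a proton-coupled carrier of glycine, alanine and proline, fell in R98S cells. Its normalized read counts were 622, 528 and 800 in the WT clones and 248, 317 and 261 in the R98S clones, without overlap, and WT clone 36 was the highest of the 6. The log2 fold change was -1.22 (limma adjusted p = 0.0071, SE 0.19), and the call was kept whichever clone was left out, between -1.36 and -1.06.

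Slc7a11 (xCT), the light chain that exchanges cystine for glutamate and also pairs with Slc3a2, fell as well. It had 1258, 1507 and 312 normalized read counts in the WT clones and 278, 359 and 149 in the R98S clones. WT clone 36 lay between R98S clones 11 and 13, as for several members, and the log2 fold change of -1.77 (limma adjusted p = 0.0755, SE 0.58) was -2.48 without that clone (0.0085). The call was lost without WT clone 28 or 29 or R98S clone 11 or 35, with log2 fold changes from -1.85 to -1.35. Slc43a2 (LAT4), a carrier of branched-chain amino acids and phenylalanine, was called lower (limma adjusted p = 0.0957, log2 fold change -0.44), but not without WT clone 28 or 36 or R98S clone 11 or 35, where it lay between -0.41 and -0.34. Its adjusted p was under 0.1 in 9 of 18 settings, the main fit included, so some settings that kept all clones also lost the call.

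Slc38a6, a less studied relative of Slc38a1 and Slc38a2, rose in R98S cells. It had 7411, 6480 and 6235 normalized read counts in the WT clones and 19696, 24896 and 27873 in the R98S clones. Every R98S clone was above every WT clone by a factor of more than 2, and the ratio of the means was 3.6. The log2 fold change was 1.84 (limma adjusted p = 0.000329, SE 0.15). It lay between 1.73 and 1.98 when single clones were left out. Mfsd12, which carries cysteine into lysosomes, fell from 472 ± 26 to 259 ± 22 normalized read counts (limma adjusted p = 0.0087, log2 fold change -0.87). Its exons share 1179 bases with a gene on the opposite strand, 4930404N11Rik.

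Of the mitochondrial carriers, 2 of 11 tested were higher and 1 was lower, against 10.7% and 13.1% of all tested genes. Slc25a22, a glutamate carrier, had 385, 356 and 385 normalized read counts in the WT clones and 883, 665 and 829 in the R98S clones (limma adjusted p = 0.0046, log2 fold change 1.07, SE 0.15). The 30 nearest tested genes were shifted by 0.32 in the same direction, and relative to them the log2 fold change was 0.74 (adjusted p = 0.0125). Slc25a38, a glycine carrier needed for heme synthesis, rose from 370 ± 65 to 543 ± 76 (limma adjusted p = 0.074), a call lost without WT clone 29 or 36 or R98S clone 11 or 35, with log2 fold changes from 0.43 to 0.55. Sfxn3, a sideroflexin that can carry serine, fell from 1704 ± 355 to 954 ± 403 (limma adjusted p = 0.066), a call lost without WT clone 28 or 29 or R98S clone 11 or 35, with log2 fold changes from -0.86 to -0.70.

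**Figure D5:**
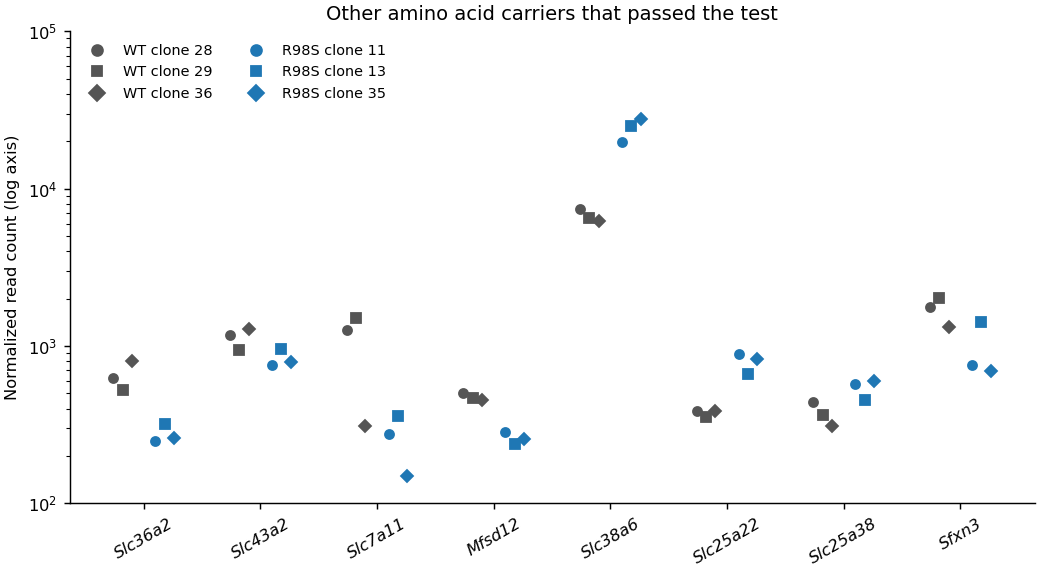
Normalized read count (y axis, log scale) of the 8 other amino acid carriers that were called, in each WT clone (gray) and R98S clone (blue). Slc38a6 shows the highest levels and the widest gap between groups, and the groups overlap for Slc7a11, Slc43a2 and Sfxn3.

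Inside the cell, amino acid levels are read by lysosomal complexes that recruit the kinase mTOR. Of 32 tested genes of this machinery, 1 was higher and 3 were lower in R98S cells (12.5% called, against 23.9% of all tested genes), with a median log2 fold change of -0.10. Lamtor4, a subunit of the Ragulator scaffold, had 2618, 2300 and 3494 normalized read counts in the WT clones and 797, 1243 and 1244 in the R98S clones (limma adjusted p = 0.0075, log2 fold change -1.36, SE 0.22). Depdc5, a subunit of the GATOR complex that restrains mTOR, fell from 1026 ± 59 to 598 ± 46 (limma adjusted p = 0.007, log2 fold change -0.78). Wdr24, of the GATOR complex that promotes mTOR activity, was called higher (log2 fold change 0.47) and Fnip2, a partner of folliculin, was called lower (-0.66). Both calls were lost without WT clone 28 or 29 or R98S clone 11 or 35, and that of Wdr24 also without WT clone 36, with log2 fold changes from 0.37 to 0.53 for Wdr24 and from -0.74 to -0.47 for Fnip2.

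The genes listed around ATF4, the transcription factor of the amino acid response, were lower in R98S cells for 6 of the 10 tested, against 13.1% of all tested genes. The median log2 fold change was -0.72, and all 10 lay below 0, as did 5883 of all 11550 tested genes. Of 15 listed genes 5 were under the expression filter. Atf4 itself had 17209, 16795 and 15535 normalized read counts in the WT clones and 12136, 14702 and 14339 in the R98S clones, without overlap, and a log2 fold change of -0.27 that was not called (limma adjusted p = 0.148, SE 0.11).

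Nupr1, a small stress-induced chromatin protein, had 294, 357 and 78 normalized read counts in the WT clones and 36, 39 and 34 in the R98S clones (limma adjusted p = 0.02, log2 fold change -2.45, SE 0.52). Atf5, a transcription factor of the same response, fell from 576 ± 247 to 148 ± 22 (limma adjusted p = 0.0126, log2 fold change -1.86). Trib3, a pseudokinase, had 1733, 2114 and 828 in the WT clones and 376, 981 and 492 in the R98S clones (limma adjusted p = 0.0648, log2 fold change -1.35), a call lost without WT clone 28 or 29 or R98S clone 11 or 35 (-1.25 to -1.06). In all 3 genes WT clone 36 was the lowest WT clone, as it was for 9 of the members.

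Asns, asparagine synthetase, followed the order of Slc7a1 in the WT clones, with 7919, 8606 and 4849 normalized read counts, and had 6149, 6127 and 6553 in the R98S clones. It was not called (limma adjusted p = 0.671, log2 fold change -0.14, SE 0.20) but was called without WT clone 36 (-0.40, adjusted p = 0.0536). Without that clone 8 of the 10 genes around ATF4 were called lower, against 12.2% of all tested genes, and their median log2 fold change was -1.05. The difference of WT clone 36 from the other two WT clones had a median of -0.80 over these 10 genes. Its part in the transporter values was not tested.

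Myc and its partners, listed because Myc is known to drive carrier genes in lymphoid cells, had 1 higher and 2 lower of 10 tested, against 10.7% and 13.1% of all tested genes. Myc had 10487, 9116 and 12066 normalized read counts in the WT clones and 10415, 9263 and 8153 in the R98S clones (limma adjusted p = 0.405, log2 fold change -0.18, SE 0.14). Max, the partner through which Myc binds DNA, rose from 2425 ± 385 to 4362 ± 526 (limma adjusted p = 0.0106, log2 fold change 0.85). Mxd3 and Mxd1, which compete with Myc for Max, were called lower, with log2 fold changes of -1.15 (limma adjusted p = 0.031) and -0.64 (0.0797). The call of Mxd3 was lost without R98S clone 11 (-0.98) and that of Mxd1 without WT clone 29 or 36 or R98S clone 13 or 35 (-0.64 to -0.48).

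Serine, a substrate of Slc1a4, Slc1a5 and Slc38a2, and glycine, a substrate of Slc38a2 and Slc6a9, are also made in the cell. Of 9 enzymes of their synthesis and use, 2 were called higher in R98S cells (10.7% of all tested genes were). These were Psph, the last enzyme of serine synthesis, at 111, 94.6 and 95.1 normalized read counts in the WT clones and 570, 604 and 674 in the R98S clones, and Shmt1, the cytosolic enzyme that interconverts serine and glycine, with a log2 fold change of 0.47 that was not called without WT clone 28 (0.41). The first enzymes of the route were not called, with log2 fold changes of -0.26 for Phgdh and -0.020 for Psat1, nor was the mitochondrial Shmt2 (0.25).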

How the data were processed

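Total mRNA of 3 WT and 3 R98S monoclonal Ba/F3 cultures was sequenced from strand-specific libraries on an Illumina HiSeq instrument. The authors removed rRNA and tRNA reads with Bowtie2, aligned the rest to mm10 with TopHat, kept primary alignments above a mapping quality limit, and counted reads on exons. The submitters' processing notes also name HTSeq and SAMtools. The deposited signal values are counts that the authors divided by DESeq2 size factors. Every library's non-zero values (100%) equalled a whole number of reads within a tolerance of 0.001, so reads were recovered by division (21786776 to 24204991 per library, read from the values). Values were tested as log2(normalized read count + 1) with limma 3.58.1 (R 4.3.3, intensity trend, two-sided, Benjamini-Hochberg adjusted p under 0.1) for genes with a mean of at least 10. This scale understates changes of low genes. The clones are separate cultures by the labels, and replicate libraries differed by far more than counting noise (chi-square per degree of freedom 18.7 to 65.2), so clone variation, not depth, set the precision.

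Alternatives were pseudocounts of 0.5 and 5, no filter or a mean of at least 50, scaling to the total or upper quartile, no intensity trend, adjusted p under 0.05, subtraction of the median difference of the 30 tested genes nearest on the chromosome, each clone left out in turn, and edgeR 4.0.16 (quasi-likelihood) and DESeq2 1.42.0 (Wald) on the recovered reads. Steps were tested on simulated data. Ratios were compared by exact permutation tests. Gene positions and exon lengths came from GENCODE for GRCm38 and promoters from RefSeq. The members and lists were chosen with earlier results of these data known. Named genes are the 10 members, Psph, Phgdh, Psat1, Shmt1, Shmt2, Atf4, Asns, Myc and Slc7a11 whatever their values, and from each carrier, sensing, ATF4 and MYC list at most 3 called genes in each direction with a mean of at least 100. Marker genes named were chosen after their values were seen.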

Additional observations from a re-analysis of the deposited data

How the results depend on the processing

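No paired analysis was possible because the WT and R98S cultures carry different clone numbers. The count of members called was 0 in the report, 1 (lower) with DESeq2, and between 0 and 4 (all lower) when single clones were left out, the 4 coming without WT clone 36. The median log2 fold change of the members then ranged from -0.31 to -0.090. Of 170 comparisons of a member with its value under another setting, 163 kept direction and side of the threshold, 5 newly passed it, and 2 changed sign, Slc6a9 without WT clone 28 (0.11) and without WT clone 29 (0.12). Its lowest value was -0.455 without WT clone 36. Of 442 such comparisons for the other named genes, 375 kept both, 56 lost the call, 3 gained it and 8 changed sign: Psat1 at 0.00084 and 0.022 under total and upper quartile scaling, 0.26 without the regional shift, and 0.041, 0.047 and 0.084 without WT clone 28, WT clone 29 and R98S clone 13 (-0.147 without WT clone 36), Asns at 0.018 without WT clone 29 (-0.396 without WT clone 36), and Myc at 0.021 without the regional shift. Of the 56 lost calls, 21 came in settings that kept all clones. Of the other carriers, 8 were called (3 higher, 5 lower). The count was 4 (2 lower) at an adjusted p under 0.05. There were 2 lower without the intensity trend and 5 higher without the regional shift, and leaving out single clones gave 4 to 8 in all, 2 to 4 higher and 2 to 5 lower. Over all genes 2755 were called (1241 higher, 1514 lower), 1722 (776 and 946) at an adjusted p under 0.05, and 1322 to 3213 (585 to 1436 higher, 737 to 1777 lower) with single clones left out. Ratios between members were recomputed with other pseudocounts and with clones left out, and kept their sign under the pseudocounts. They were not recomputed without the regional shift, where the log2 fold changes were -0.225 for Slc7a5 and -0.267 for Slc3a2. With clones left out, the log2 ratio difference ranged from -0.13 to 0.051 for Slc7a5 to Slc3a2 and from -0.14 to 0.18 for Slc38a1 to Slc38a2. For the others it ranged from 0.25 to 0.39 (Slc7a6 to Slc3a2), from -0.39 to -0.014 (Slc1a4 to Slc1a5) and from -0.22 to -0.12 (Slc7a1 to Slc7a5). Apart from the settings that test fewer samples, the cause of these changes was not tested.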
